A study of Mus musculus with 12 samples.

Results

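CD8 T cells deficient in Ezh2 (KO) were compared with wild-type cells (WT) at day 5 of culture, in 3 KO and 3 WT libraries of the 12 in the series, chosen by their sample titles. Genes with at least 1 CPM (reads per 1000000 reads of the library) in at least 3 of these 6 libraries were described, 10903 of the 25655 listed. Both groups were CD8 T cells from spleens of female C57BL/6 mice, taken as naive cells by their surface markers (low CD44 among them). The cells had been activated for 2 days by plate-bound antibody to the T cell receptor β chain (3 µg/ml) and by antibody to CD28 (1 µg/ml) with IL-2 (10 ng/ml), and were then kept in IL-2. The protocol and the titles do not give the same length for the last step, so "day 5" follows the titles. The day 3 libraries, 3 KO and 3 WT, entered the comparison of the days at the end. The deleted part of Ezh2, the driver of the deletion and the origin of the replicates (separate mice or cultures) are not stated by the labels. The p-values thus reflect library-to-library spread, possibly technical.

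Ezh2 is the methyltransferase of Polycomb repressive complex 2 (PRC2), which methylates lysine 27 of histone H3 and keeps its target genes silent. Known targets are developmental regulators and the Cdkn2a and Cdkn2b locus of cell cycle inhibitors. Activated CD8 T cells divide, switch on granzymes and perforin, and give rise to short-lived effector cells and to memory precursors, a choice in which Ezh2 is known to take part.

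The libraries held between 1545391 and 1621629 gene-assigned reads in KO and between 1711538 and 1794137 in WT, with 11705 to 11798 and 11459 to 11488 genes detected. They carried the markers of CD8 T cells. Cd8a, a chain of the CD8 coreceptor, stood at 265, 324 and 332 CPM in KO, against 236, 225 and 223 CPM in WT, and Cd4 had 1 read in each group. The 494 listed genes of immunoglobulins and T cell receptors were all without reads, so they tell nothing of the cells here. The first principal component of the 6 libraries, with 62.3% of the variance, separated KO (39.6 to 43.3) from WT (−42.3 to −41.4).

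KO replicate 2 stood apart from its partners, and the counts of called genes in the lists below are also given without it where they move. By chi-square over degrees of freedom, its reads differed from those of replicates 1 and 3 by 5.89 and 5.69, where replicates 1 and 3 differed by 1.74 and the WT pairs by 1.51 to 1.68. It lay at 37.3 on the second component (12.8% of the variance), where its partners lay at −18.4 and −19.9. For 5151 genes reaching 30 CPM in a KO library, each replicate was set against the mean of its 2 partners on the log2 scale. In replicate 2, 21 genes were more than 2-fold above that mean and 76 more than 2-fold below it. The counts were 11 and 8 in replicate 1 and 13 and 13 in replicate 3. The share of mitochondrial reads was 2.07% in it and 3.00% and 3.12% in its partners. Of 1615 genes called and at least 2-fold different without it, 1579 (97.8%) differed from the WT mean in the same direction in replicate 2. The same WT libraries served to choose these genes, so part of this agreement is built in.

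The targeted gene was lower in KO. Ezh2, on the minus strand of chromosome 6 (47530139 to 47595341, GRCm38; ENSMUSG00000029687), had 159, 283 and 161 CPM in KO, against 306, 319 and 316 CPM in WT (log2 fold change −0.70, SE 0.17, adjusted p = 0.00723 by limma). The groups did not overlap, and KO replicate 2 was the KO library nearest to WT. Without it the log2 fold change was −0.97, and with the spread fitted without its trend on expression the call ended (limma adjusted p = 0.0734). A 3′ tag outside the deleted part checks nothing, and that part is not known here, so these values test neither the labels nor the loss of the protein.

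The partners of Ezh2 moved in both directions. Of 13 tested PRC2 genes 3 rose and 5 fell (6 fell without KO replicate 2), where 15.8% of all genes tested rose and 21.1% fell. Suz12, a core subunit that PRC2 needs for activity, stood at 368, 309.6 and 334 CPM in KO, against 646, 688 and 668 CPM in WT (log2 fold change −0.99, SE 0.09, adjusted p = 3.10e-06 by limma). The histone-binding subunits Rbbp7 (log2 fold change −1.13) and Rbbp4 (−0.83) fell with it. Ezh1, the other methyltransferase of PRC2, rose to 60.8, 67.8 and 55.6 CPM in KO, against 31.0, 22.9 and 31.1 CPM in WT (log2 fold change 1.10, SE 0.17, adjusted p = 2.13e-04 by limma). Jarid2, an accessory subunit that helps to recruit PRC2, rose as well, to 186, 202 and 219.8 CPM in KO, against 112, 112 and 97.7 CPM in WT (0.91, limma adjusted p = 3.27e-05). Neither gene's groups overlapped. The core subunit Eed did not pass (57.4 ± 5.55 CPM in KO against 65.0 ± 2.60 CPM in WT). Of 22 PRC1 genes 3 rose and 5 fell, or 2 and 7 without KO replicate 2, and 2 fell with DESeq2. Bmi1, a PRC1 subunit known for repressing Cdkn2a, stood at 55.6, 51.2 and 67.0 CPM in KO, against 17.5, 18.4 and 19.2 CPM in WT (log2 fold change 1.6, SE 0.17, adjusted p = 1.14e-05 by limma), and Cbx6, a chromodomain subunit, fell (−1.20).

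In all, 4027 genes differed by limma at an adjusted p under 0.05 (36.9% of the genes tested), 1722 higher (15.8%) and 2305 lower (21.1%) in KO. At least 2-fold changes were called in 878 genes higher (8.05%) and 746 lower (6.84%), or 855 and 760 without KO replicate 2. The balance of directions depends on the scaling. With CPM the median log2 fold change of all genes was −0.09 and 42.8% of calls were higher, while median-of-ratios scaling gave a median of 0.00 with 2059 higher (18.9%) and 1826 lower (16.7%), so that 53% of calls were higher. Without KO replicate 2, 4173 genes were called (38.3%), 1770 higher (16.2%) and 2403 lower (22.0%). Of the 4027 calls, 3640 (90.4%) were made again in the same direction and 0 in the opposite one. Both fits share the other libraries, so part of this agreement is built in. The libraries of the groups did not overlap in 5338 genes (49.0%), and in 3936 of these the gene was also called. The shares of 15.8% higher and 21.1% lower are the background for each list count below.

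**Figure D1:**
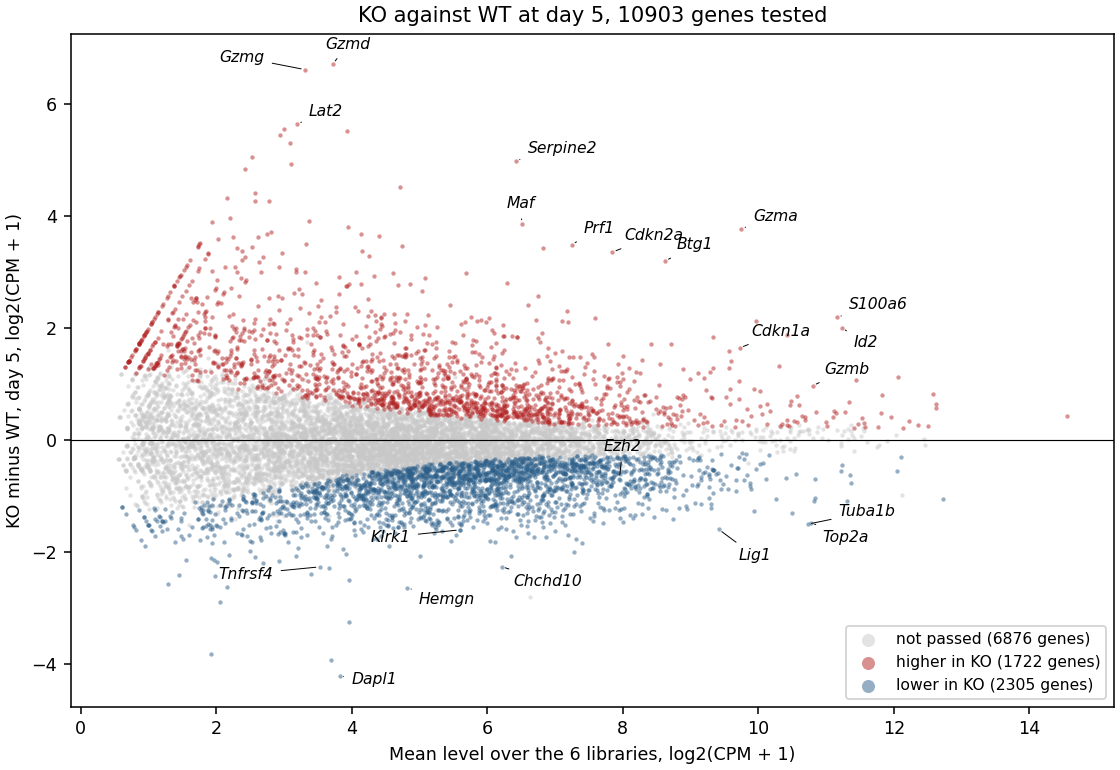
Each point is a gene tested at day 5, with its mean level over the 6 libraries on the x axis (log2(CPM + 1)) and the KO minus WT difference on the y axis (log2 scale), coloured by call. Gzmd and Gzmg lie at the top with differences of 6.72 and 6.62, Dapl1 lies near the bottom at −4.23, and Gzma combines a high level with a difference of 3.77.

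Granzymes and genes of antigen presentation stood among the 15 largest rises. These are the largest log2 fold changes among called genes that averaged at least 5 CPM in the higher group, did not overlap between groups and are no predicted gene models. Of the 15 genes 5 encode granzymes (Gzmc, Gzmd, Gzme, Gzmf and Gzmg) and 3 encode the class II machinery (Cd74, H2-Aa and H2-Eb1). In a fit to all 12 libraries, all 15 were also called higher in KO at day 3. Lat2, an adaptor of immune receptor signalling known mainly from B and myeloid cells, stood at 65.4, 62.3 and 63.8 CPM in KO, against 1.17, 0 and 0 CPM in WT. The WT group held 2 reads, so the ratio of 168 has a 95% counting interval of 46.2 to 1396. Ly6g, a surface protein used as a neutrophil marker and a member of a family of similar genes, stood at 38.8, 56.1 and 65.7 CPM in KO, against 0.584, 0.557 and 0 CPM in WT (ratio 142, 95% counting interval 38.8 to 1176, 2 reads in WT). The neutrophil genes S100a8 and Csf3r had no read in any of the 6 libraries, while Itgam, another myeloid marker, rose (log2 fold change 2.53, limma adjusted p = 2.48e-04). The presence of neutrophils was not tested.

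Serpine2, an inhibitor of serine proteases, rose 34.0-fold with little spread between libraries, at 486, 442 and 523 CPM in KO, against 14, 14.5 and 14.1 CPM in WT (log2 fold change 4.99, SE 0.12, adjusted p = 2.30e-11 by limma). Marcks, an actin-binding substrate of protein kinase C, rose 27.7-fold (126 ± 21.3 CPM in KO against 4.55 ± 0.960 CPM in WT). Asb2, a substrate receptor of a ubiquitin ligase, rose 51.7-fold (48.0 ± 14.1 CPM in KO against 0.929 ± 1.61 CPM in WT). Hlx, a homeobox transcription factor of T helper cells, had 15.5, 15.4 and 28.4 CPM in KO and no read in WT, so KO exceeded WT at least 34.8-fold, taking 3 reads over the WT group as the limit of a count of 0. Ppp2r2c, a regulatory subunit of protein phosphatase 2A, stood at 25.9, 18.5 and 32.9 CPM in KO, against 0, 0.557 and 0.565 CPM in WT (ratio 67.7, 95% counting interval 18.4 to 566).

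The 15 largest falls were smaller, with log2 fold changes of −4.23 to −2.14 against 4.28 to 6.72 among the rises. Dapl1, a gene known as a mark of naive and memory-like T cells, stood at 1.94, 1.85 and 3.16 CPM in KO, against 71.3, 45.7 and 66.7 CPM in WT, 26.4-fold lower in KO (log2 fold change −4.23, SE 0.27, adjusted p = 1.54e-07 by limma). Hemgn, a nuclear protein of blood progenitors, fell 6.79-fold (10.3 ± 1.17 CPM in KO against 70.0 ± 8.21 CPM in WT). Stc2, a secreted glycoprotein, fell 6.38-fold, and Chchd10, a protein of the mitochondrial intermembrane space, fell 4.89-fold to 39.5, 27.1 and 32.9 CPM in KO, against 172, 166 and 148 CPM in WT. Tnfrsf4, the costimulatory receptor OX40, stood at 4.53, 8.02 and 1.90 CPM in KO, against 19.9, 27.9 and 26.0 CPM in WT (log2 fold change −2.27, SE 0.37, adjusted p = 3.23e-04 by limma). Fancd2, which repairs DNA crosslinks, and Pkmyt1, a kinase that restrains Cdk1, fell 5.54-fold and 9.59-fold. Lzts2 had 1 read in KO and 30 in WT, so WT stood higher by a ratio of 27.0 (95% counting interval 4.49 to 1102), and Pdzd9 had 0 reads in KO and 30 in WT, at least 9.0-fold higher in WT by the same limit.

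Genes of cell division fell almost without exception. Of 65 genes of DNA replication and S phase, all tested, 62 fell and 0 rose (63 fell without KO replicate 2), and of 70 genes of mitosis and G2/M, all tested, 69 fell and 0 rose. Their median log2 fold changes were −1.32 and −1.28, beside −0.09 over all genes, of which 21.1% fell. Gins4, Rpa3 and Donson (log2 fold changes of −0.45, −1.0 and −0.46) and the phosphatase gene Cdc25c (−0.81) did not pass. The summed level of the S phase genes was 3730 to 3939 CPM in the KO libraries and 9384 to 9479 CPM in the WT libraries. That of the mitosis genes was 6031 to 6540 CPM in KO and 14800 to 15310 CPM in WT. In bulk RNA, fewer cells of a kind and less RNA per cell cannot be told apart.

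Among replication genes, Lig1, the ligase that seals Okazaki fragments, stood at 409, 388 and 377 CPM in KO, against 1236, 1243 and 1092 CPM in WT (log2 fold change −1.6, SE 0.09, adjusted p = 3.76e-08 by limma). Hells, a chromatin remodeller needed for DNA methylation, stood at 86.1, 75.2 and 94.1 CPM in KO, against 308, 292 and 277 CPM in WT (−1.77). In both genes every KO library lay below every WT library by more than 2-fold. Uhrf1, which recruits the maintenance DNA methyltransferase to new strands, fell to 81.5, 80.2 and 79.0 CPM in KO, against 258, 265 and 266 CPM in WT (−1.70, limma adjusted p = 6.59e-08). Dut, which keeps uracil out of DNA, fell as well (−1.48), and so did Mcm6, a subunit of the replicative helicase (−1.47).

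Among mitotic genes, Top2a, the topoisomerase that untangles sister chromatids, stood at 1078, 969 and 1109 CPM in KO, against 2960.5, 2909 and 2931 CPM in WT (log2 fold change −1.48, SE 0.08, adjusted p = 4.15e-08 by limma). Mki67, which coats mitotic chromosomes and is used as a proliferation marker, stood at 383, 439 and 425 CPM in KO, against 1022, 909 and 959 CPM in WT (−1.21). Nusap1 and Tacc3, both spindle proteins, fell by 1.40 and 1.57 on the log2 scale. Cdk1, the kinase that drives entry into mitosis, stood at 106, 37.6 and 114 CPM in KO, against 303, 309 and 321 CPM in WT (log2 fold change −2.0, SE 0.30, adjusted p = 1.72e-04 by limma). KO replicate 2 was the lowest library for Cdk1, more than 2-fold below its partners, and the groups did not overlap with or without it.

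The promoter windows of these genes were read for words bound by the regulators of the cell cycle, the E2F factors in S phase and the MuvB complex at the cell cycle homology region (CHR) in G2/M. The windows run from 250 bases before to 50 bases after each annotated start (RefSeq, GRCm38.p6). The E2F words were TTTCCCGC, TTTCGCGC, TTTGCCGC and TTTGGCGC and the CHR words TTTGAA and TTCGAA, on both strands, of which TTCGAA reads the same on both. Of 65 S phase genes 51 had a window, and 22 of them (43.1%) held an E2F word, beside 437 of 8776 tested genes with a window (4.98%) and 2.61% of all 27025 genes in the table. Of 59 mitosis genes with a window 41 (69.5%) held a CHR word, beside 16.7% of tested genes and 21.7% of all. The letters CCAAT stood in 64.7% and 71.2% of the S phase and mitosis windows and in 43.6% of those of tested genes. They were not particular to division genes, as 19 of 23 cholesterol and fatty acid synthesis genes with a window (82.6%) held them. E2F words stood in 8.62% of the windows of genes that fell and in 2.64% of those of genes that rose. For CHR words these shares were 19.6% and 16.4%. A match is a description of letters and shows no binding. The stretches upstream of the start that hold the words are given for 3 genes of each kind, 5′ to 3′ on the gene's strand, with every E2F and CHR word in capitals, to show the letters that were matched and their neighbourhood.
Uhrf1: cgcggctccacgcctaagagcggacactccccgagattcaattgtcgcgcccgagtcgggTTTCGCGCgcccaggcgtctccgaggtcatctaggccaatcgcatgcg
Hells: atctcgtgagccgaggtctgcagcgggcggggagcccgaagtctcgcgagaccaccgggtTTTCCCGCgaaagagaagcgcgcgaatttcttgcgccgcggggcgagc
Mcm6: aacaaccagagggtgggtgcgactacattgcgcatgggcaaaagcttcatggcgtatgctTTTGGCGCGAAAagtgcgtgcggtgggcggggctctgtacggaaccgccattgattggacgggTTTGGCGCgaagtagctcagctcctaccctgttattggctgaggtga
Top2a: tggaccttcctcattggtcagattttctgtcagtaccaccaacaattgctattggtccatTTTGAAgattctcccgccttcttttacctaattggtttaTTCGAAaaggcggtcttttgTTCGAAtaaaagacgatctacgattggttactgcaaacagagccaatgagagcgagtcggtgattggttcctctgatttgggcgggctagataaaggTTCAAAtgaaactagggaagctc
Mki67: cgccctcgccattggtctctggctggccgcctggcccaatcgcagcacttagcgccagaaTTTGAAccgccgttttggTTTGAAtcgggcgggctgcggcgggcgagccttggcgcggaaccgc
Cdk1: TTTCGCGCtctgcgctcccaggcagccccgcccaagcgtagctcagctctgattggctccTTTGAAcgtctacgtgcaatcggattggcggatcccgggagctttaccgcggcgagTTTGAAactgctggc
The first 3 lie at chr17:56304068-56304175 on the plus strand, chr19:38930868-38930975 on the plus strand and chr1:128359706-128359875 on the minus strand, and the other 3 at chr11:99024190-99024428 on the minus strand, chr7:135716432-135716555 on the minus strand and chr10:69352913-69353043 on the minus strand. In Mcm6 the first capital run holds a pair of overlapping E2F words on opposite strands. The Cdk1 stretch opens with an E2F word, ahead of its CHR words. In Top2a the last CHR word is on the opposite strand, as its letters TTCAAA show.

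Of 8 genes of inhibitors of cyclin-dependent kinases (CDKs) 3 rose and 1 fell (4 and 1 without KO replicate 2), beside 15.8% and 21.1% of all genes tested. Cdkn2a (ENSMUSG00000044303, chromosome 4, 89274471 to 89294653, minus strand), which encodes p16 and p19 and is well known as a Polycomb target, stood at 806, 708 and 697 CPM in KO, against 64.3, 77.5 and 71.8 CPM in WT, 10.4-fold higher in KO (log2 fold change 3.36, SE 0.10, adjusted p = 2.13e-10 by limma). A 3′ tag cannot tell the transcripts of p16 and p19 apart. Its neighbour Cdkn2b (ENSMUSG00000073802, chromosome 4, 89306299 to 89311039, minus strand), the gene of p15, stood at 31.7, 39.5 and 39.2 CPM in KO, against 8.76, 6.13 and 4.52 CPM in WT (log2 fold change 2.37, SE 0.25, adjusted p = 1.26e-05 by limma). Cdkn1a, the gene of p21 and a target of p53, stood at 2036, 939 and 1751 CPM in KO, against 412, 546 and 486 CPM in WT (log2 fold change 1.64, SE 0.21, adjusted p = 5.77e-05 by limma). No KO library overlapped WT in these 3 genes, and KO replicate 2 was the lowest KO library for Cdkn1a, with a log2 fold change of 1.98 without it. Cdkn3, a phosphatase of CDKs that peaks in mitosis, fell (−1.24). Cdkn1b, Cdkn1c, Cdkn2c and Cdkn2d did not pass.

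Of 26 genes of G1 cyclins, CDKs and the E2F, Rb and MuvB families, 16 fell and 5 rose, beside 21.1% and 15.8% of all genes tested. The factors E2f8 (25.9, 28.4 and 25.9 CPM in KO, against 81.2, 89.2 and 80.2 CPM in WT; log2 fold change −1.61) and E2f2 (−1.32) and cyclin E1 (Ccne1, −1.35) were among the falls. Ccnd2, the cyclin D of lymphocytes, rose instead, at 3908, 4500.4 and 3701 CPM in KO, against 1805, 2024 and 1952 CPM in WT (log2 fold change 1.06, SE 0.09, adjusted p = 1.78e-06 by limma). Rbl2, a pocket protein of resting cells, rose to 81.5, 76.5 and 88.4 CPM in KO, against 40.3, 47.4 and 36.2 CPM in WT (0.98, limma adjusted p = 1.52e-04), and Rb1 rose as well (0.78). Cdk6, a G1 kinase, did not pass (1076 ± 18.2 CPM in KO against 1105 ± 41.5 CPM in WT; limma adjusted p = 0.737). The number that rose was 3 without WT replicate 1, WT replicate 2 or KO replicate 1.

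**Figure D2:**
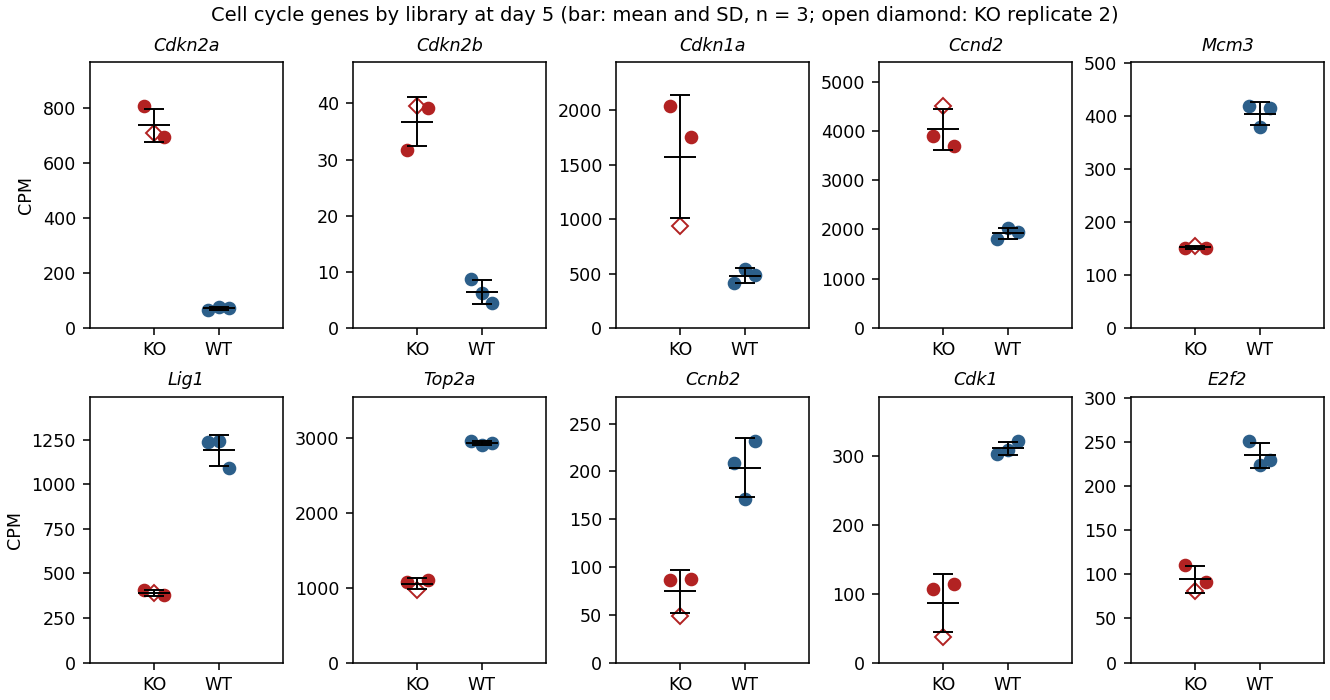
Levels in CPM of 10 cell cycle genes in each library at day 5, KO left of WT, with the mean and SD of 3 libraries as bars and KO replicate 2 as an open diamond; axes start at 0 and differ between panels. The 3 inhibitor genes and Ccnd2 were higher in every KO library, and the other 6 genes were lower in every KO library, with KO replicate 2 the lowest library for Top2a, Ccnb2, Cdk1 and E2f2.

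Genes of lipid synthesis, ribosome assembly and glycolysis fell in KO as well. Of 33 genes of cholesterol and fatty acid synthesis, all tested, 29 fell and 0 rose, beside 21.1% and 15.8% of all genes tested. Their median log2 fold change was −1.0. Cyp51, a sterol demethylase, fell to 149, 166 and 162 CPM in KO, against 405, 372 and 368 CPM in WT (log2 fold change −1.26, SE 0.09, adjusted p = 6.17e-07 by limma), and Fasn, which makes palmitate, fell by 1.25 on the log2 scale. Both genes had KO libraries well below WT. Srebf2, the transcription factor of the pathway, did not pass (255 ± 28.9 CPM in KO against 245 ± 25.4 CPM in WT).

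Of 47 ribosome biogenesis genes 40 fell and 0 rose (43 fell without KO replicate 2), with a median of −0.77. Fbl, which methylates ribosomal RNA, stood at 176, 176 and 149.7 CPM in KO, against 324, 354 and 321 CPM in WT (log2 fold change −0.99, SE 0.10, adjusted p = 8.04e-06 by limma), and Ncl, a major nucleolar protein, at 1941, 2232 and 1913 CPM in KO, against 3449, 3443 and 3494 CPM in WT (−0.77). Noc2l and Ddx18, both nucleolar, fell by 0.94 and 0.80 on the log2 scale. The structural proteins of the ribosome were not among the falls of the main fit. Of 80 such genes 31 rose by little, 0 fell and 49 did not pass, with a median of 0.16. Over all genes tested 15.8% rose and 21.1% fell. The genes that rose included Fau (3289 ± 491 CPM in KO against 2051 ± 18.2 CPM in WT, log2 fold change 0.67, SE 0.10, adjusted p = 1.56e-04 by limma), Rpl30 (0.47) and Rpl19 (0.41). The number that rose moved with the settings. It was 43 without KO replicate 2, 16, 14 and 14 without WT replicates 1, 2 and 3, 46 with median-of-ratios scaling, 8 without the trend in the spread, and 11 under quantile normalization, which called 3 lower, while 2 fell without KO replicate 1.

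Of 32 tested genes of glycolysis and the hypoxia response 22 fell and 0 rose (25 fell without KO replicate 2), with a median of −0.74. Over all genes tested 21.1% fell and 15.8% rose. Hk2, the hexokinase induced by activation, stood at 73.8, 51.2 and 63.2 CPM in KO, against 146, 144 and 154 CPM in WT (log2 fold change −1.24, SE 0.14, adjusted p = 1.56e-05 by limma). Pgam1, a glycolytic mutase, fell to 622, 510.0 and 658 CPM in KO, against 1117, 1172 and 1088 CPM in WT (−0.92), and Bnip3, a mitophagy receptor induced by hypoxia, fell by 1.02. Pkm, pyruvate kinase, did not pass (1499.8 ± 49.2 CPM in KO against 1462 ± 15.5 CPM in WT; limma adjusted p = 0.741). Of 76 nuclear genes of oxidative phosphorylation 34 fell and 4 rose (37 and 5 without KO replicate 2, median −0.33), such as the ATP synthase subunits Atp5b (279 ± 12.5 CPM in KO against 489 ± 13.2 CPM in WT; −0.81) and Atp5g3 (−0.72). Uqcrh, a subunit of complex III, rose (0.58). The number that fell was 19 with DESeq2 and 22 without the trend in the spread. Of 13 mitochondrially encoded mRNAs 2 fell and 0 rose, but 3 fell and 5 rose without KO replicate 2. For mt-Nd2, a subunit of complex I, the KO libraries held 5141, 1236 and 4983 CPM, against 6089.8, 6274 and 6439 CPM in WT, with KO replicate 2 more than 4-fold below its partners. A single gene fell without WT replicate 1.

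**Figure D3:**
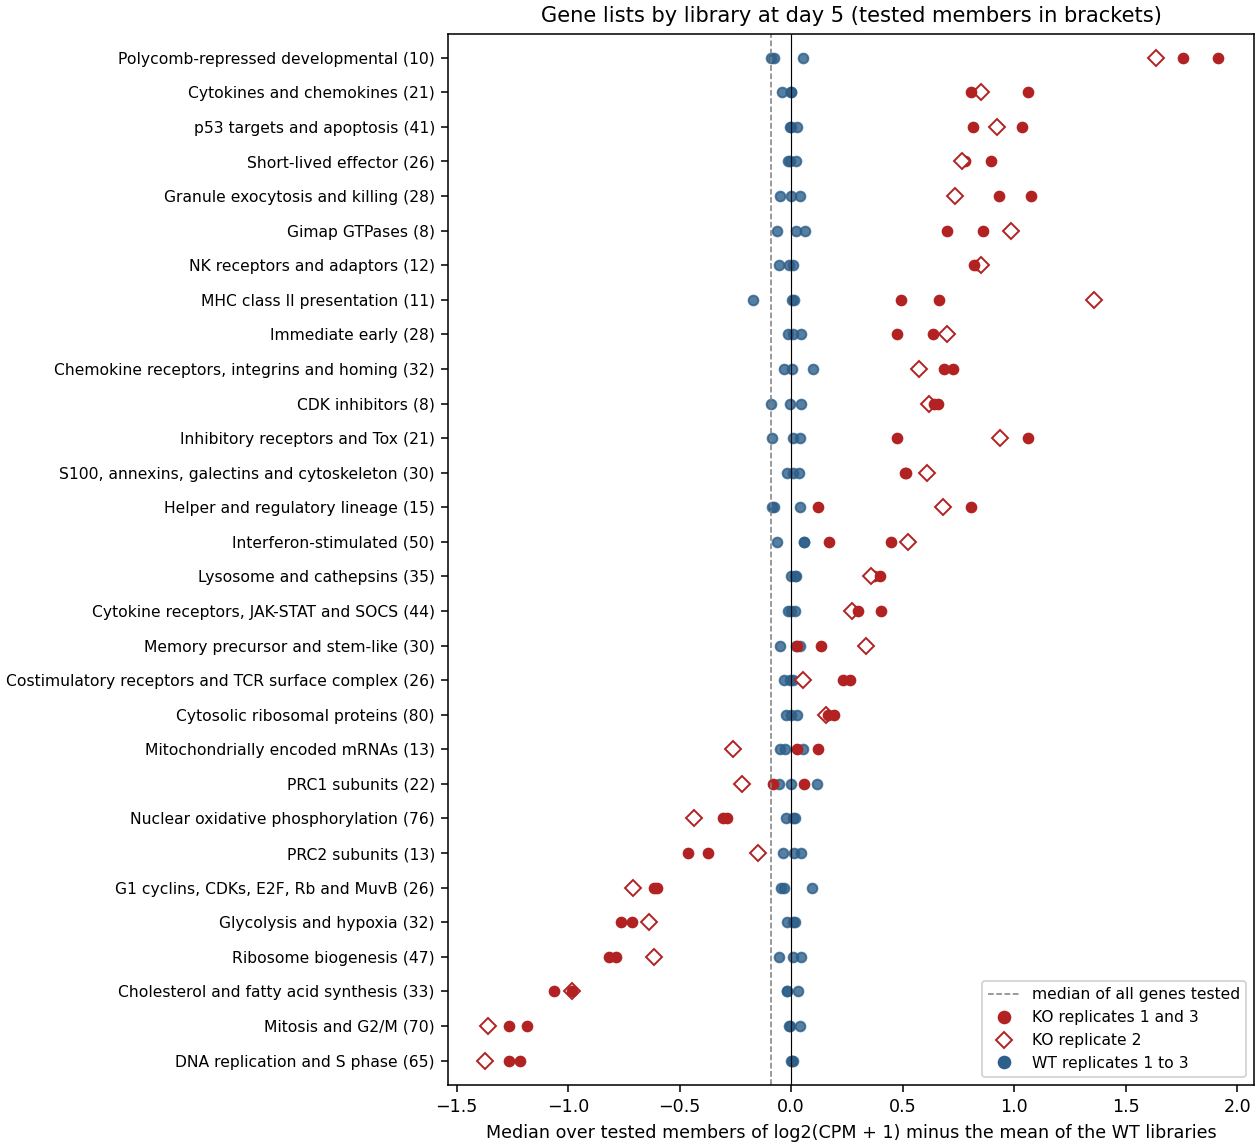
For each gene list (rows, tested members in brackets), points give the median over members of log2(CPM + 1) in a library minus the mean of the WT libraries, with KO replicate 2 as an open diamond and the median of all genes as a dashed line. The S phase and mitosis lists lie lowest, between −1.37 and −1.18 in the KO libraries, and the 3 KO libraries agree in sign in most lists, with mitochondrially encoded mRNAs and PRC1 among those that do not.

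Genes of the killing machinery rose. Of 28 tested genes of granules and killing 20 rose and 0 fell, beside 15.8% and 21.1% of all genes tested. Their median log2 fold change was 0.86. Of these 28 genes 4 had no WT library at 1 CPM and could pass the filter only through KO, so the count is a description. Gzma (ENSMUSG00000023132, chromosome 13, 113093825 to 113100981, minus strand), a granule protease that cleaves its targets in dying cells, stood at 2849.8, 3345 and 3396 CPM in KO, against 224, 253 and 221 CPM in WT, 13.7-fold higher in KO (log2 fold change 3.77, SE 0.09, adjusted p = 2.30e-11 by limma). Prf1, the perforin that opens the target membrane, stood at 413, 533 and 595 CPM in KO, against 40.9, 54.6 and 39.0 CPM in WT, 11.5-fold higher (log2 fold change 3.49, SE 0.15, adjusted p = 8.61e-09 by limma). Gzmb, the granzyme that activates caspases, stood at 2757, 1762 and 3197 CPM in KO, against 1227, 1294 and 1310.3 CPM in WT (log2 fold change 0.97, SE 0.16, adjusted p = 4.18e-04 by limma). No KO library overlapped WT in these genes, and KO replicate 2 was the lowest KO library for Gzmb, with a log2 fold change of 1.22 without it.

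Gzmb lies on chromosome 14 with a row of related granzymes between 56117626 and 56262260 (GRCm38), of which 6 were tested and 6 rose. Gzmd (ENSMUSG00000059256) stood at 111, 139 and 157 CPM in KO, against 0, 0 and 1.13 CPM in WT, and Gzmc at 80.9, 99.9 and 132 CPM in KO, against 0.584, 1.67 and 1.70 CPM in WT. The ratio for Gzmd was 358 with a 95% counting interval of 98.8 to 2964, from 2 reads in WT. Gzmg (76.4, 93.7 and 128 CPM), Gzme (24.6, 32.1 and 42.3 CPM) and Gzmf (26.5, 24.0 and 32.9 CPM) had no read in WT and were at least 175-fold, 58.1-fold and 48.9-fold higher in KO. These genes are near copies of each other, and reads may have been divided among them in a way not known here. Of the remaining granzymes, Gzmk (6.54 ± 1.71 CPM in KO against 10.2 ± 0.762 CPM in WT) and Gzmm (4.02 ± 2.30 CPM in KO against 5.10 ± 1.39 CPM in WT) did not pass.

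Other members of the granule list differed in their calls. Srgn, the proteoglycan that packs granules, stood at 459, 415 and 507 CPM in KO, against 205, 188 and 209.6 CPM in WT (1.19), and Nkg7, a granule membrane protein of killer cells, rose to 1101, 1014 and 1026 CPM in KO, against 528, 577 and 576 CPM in WT (0.90). Serpinb6b, an inhibitor of granule proteases, rose by 1.55 on the log2 scale. The release factors Unc13d, Stx11 and Stxbp2 did not pass (log2 fold changes of 0.15, 0.27 and −0.05). Ctsd, the lysosomal aspartic protease, stood at 737, 758 and 795 CPM in KO, against 219, 228 and 246 CPM in WT (log2 fold change 1.72, SE 0.09, adjusted p = 2.67e-08 by limma). Of 35 lysosome genes, 2 of which could pass the filter only through KO, 12 rose and 3 fell, with Npc2, a cholesterol carrier (1009 ± 58.2 CPM in KO against 411 ± 18.5 CPM in WT), Laptm5 (1.31) and Ctsa (1.57) beside Ctsd. Without KO replicate 2 the counts were 10 and 2, and the number that fell was 0 without WT replicate 1, 1 without WT replicate 2 and 0 with DESeq2. The shares over all genes tested were again 15.8% higher and 21.1% lower.

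**Figure D4:**
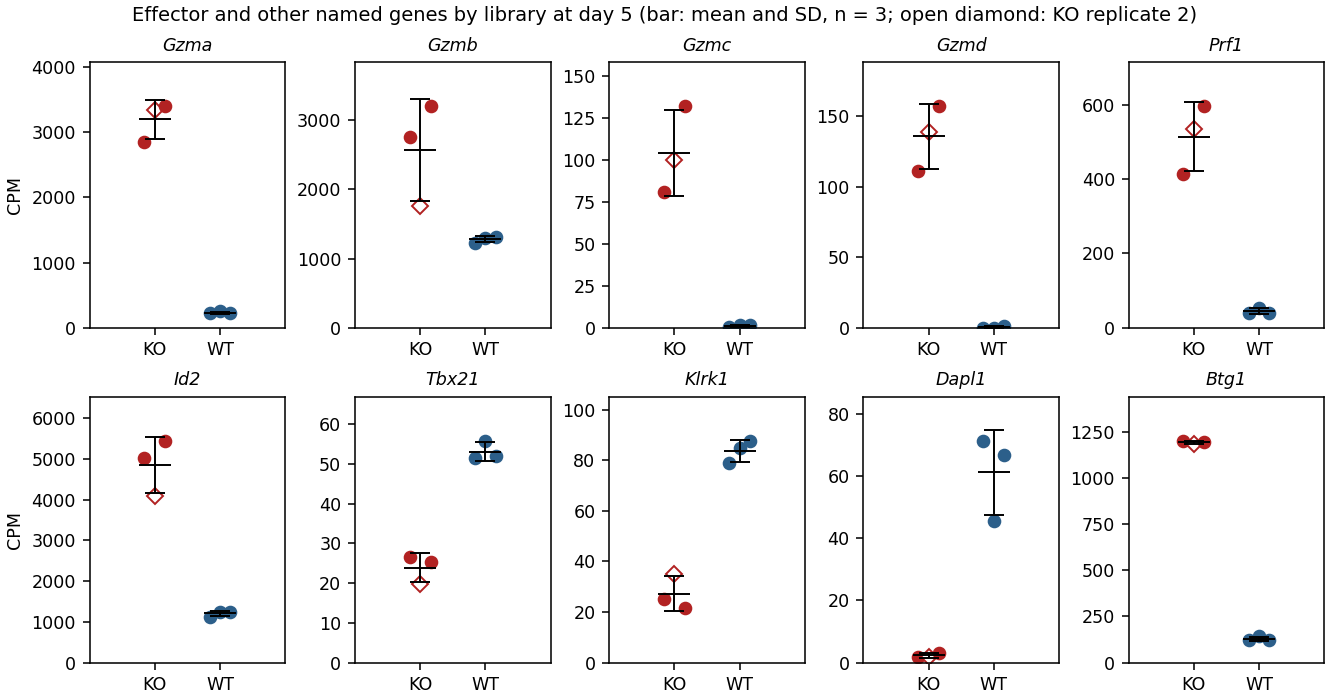
Levels in CPM of 10 effector and other genes in each library at day 5, KO left of WT, with the mean and SD of 3 libraries as bars and KO replicate 2 as an open diamond; axes start at 0 and differ between panels. Granzymes, Prf1, Id2 and Btg1 were higher in every KO library, while Tbx21, Klrk1 and Dapl1 were lower in every KO library.

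Of 26 tested genes of the short-lived effector fate 15 rose and 2 fell, beside 15.8% and 21.1% of all genes tested. Their median was 0.88, and 16 rose without KO replicate 2. Of the 26 genes 2 had no WT library at 1 CPM and could pass the filter only through KO. Id2, an inhibitor of E proteins that supports effector cells, stood at 5016, 4099 and 5442 CPM in KO, against 1125, 1252 and 1242 CPM in WT (log2 fold change 2.0, SE 0.10, adjusted p = 2.76e-08 by limma). The chemokine gene Ccl5 rose 7.13-fold (206 ± 12.9 CPM in KO against 28.9 ± 6.11 CPM in WT), and the homing receptor gene Cxcr6 rose 4.45-fold. Tbx21, the gene of T-bet, the transcription factor that drives this fate, fell to 26.5, 19.7 and 25.3 CPM in KO, against 51.4, 55.7 and 52.0 CPM in WT (log2 fold change −1.13, SE 0.17, adjusted p = 1.64e-04 by limma). Klrk1, the gene of the activating receptor NKG2D, fell to 25.2, 35.1 and 21.5 CPM in KO, against 78.9, 84.7 and 87.6 CPM in WT (log2 fold change −1.61, SE 0.18, adjusted p = 1.5e-05 by limma). Neither gene's groups overlapped. Klrg1, the usual surface marker of the fate, was not tested, with 2 reads in KO and 0 in WT over the group. Eomes, the relative of T-bet, did not pass (275 ± 30 CPM in KO against 246 ± 20.7 CPM in WT).

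Of 30 memory genes 11 rose and 5 fell (12 rose without KO replicate 2), with a median of 0.18. The shares over all genes tested were 15.8% higher and 21.1% lower. Il7r, the IL-7 receptor chain of memory precursors, stood at 120.4, 123 and 135 CPM in KO, against 66.0, 74.7 and 57.6 CPM in WT (log2 fold change 0.93, SE 0.13, adjusted p = 8.81e-05 by limma), and Lef1, a partner of the memory factor TCF-1, at 230.4, 325 and 229 CPM in KO, against 112, 113 and 114 CPM in WT (1.18). The KO libraries lay above WT for both. Tcf7, the gene of TCF-1, rose by less (65.4, 61.7 and 56.9 CPM in KO, against 50.8, 32.9 and 37.3 CPM in WT; 0.61, limma adjusted p = 0.0126), a call that ended without WT replicate 2 or 3 (limma adjusted p = 0.0677 and 0.0544) and with moderation that ignores the trend (0.0509). Beside Dapl1, the falls included Ccr7, the lymph node homing receptor (38.3 ± 7.05 CPM in KO against 98.1 ± 10.6 CPM in WT; −1.35), and Pdlim1, a cytoskeletal adaptor (−1.32).

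Of 21 tested genes of inhibitory receptors and their regulators 10 rose and 2 fell, beside 15.8% and 21.1% of all genes tested. Their median was 0.60, and 9 rose without KO replicate 2. Vsir, the gene of the checkpoint protein VISTA, stood at 214, 227 and 208 CPM in KO, against 58.4, 54.1 and 58.2 CPM in WT (log2 fold change 1.91, SE 0.11, adjusted p = 5.84e-08 by limma). Havcr2, the gene of TIM-3, rose 5.19-fold to 35.6, 51.8 and 56.9 CPM in KO, against 7.60, 10.6 and 9.61 CPM in WT. Cd160 and Entpd1, the gene of the ectonucleotidase CD39, rose by 1.70 and 1.83 on the log2 scale. Pdcd1, the gene of PD-1, had a small rise (5.18, 7.40 and 10.1 CPM in KO, against 3.51, 2.79 and 3.96 CPM in WT; 0.92, limma adjusted p = 0.0471), which did not pass without KO replicate 2 (limma adjusted p = 0.0835), nor without WT replicate 1, 2 or 3 (0.0925, 0.132 and 0.0726) or KO replicate 3 (0.164). Tox, a regulator of exhausted cells, did not pass (20.7 ± 3.94 CPM in KO against 26.7 ± 1.79 CPM in WT). The falls were the orphan receptors Nr4a1 and Nr4a3. Nr4a1 had 0 reads in KO and 13 in WT and could pass the filter only through WT. Nr4a3 stood at 1.29, 1.23 and 0.632 CPM in KO, against 2.92, 2.79 and 9.61 CPM in WT. Its call ended without WT replicate 3 (limma adjusted p = 0.158), without KO replicate 3 (0.0837) and with DESeq2 (0.0894). The number that fell was 1 without either library.

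Surface genes of the T cell receptor complex rose, 11 of 26 higher and 2 lower together with costimulatory receptors (14 and 3 without KO replicate 2, 6 higher without the trend in the spread, and 4 lower with library weights or all 12 libraries in the fit). Over all genes tested 15.8% were higher and 21.1% lower. Cd3g stood at 234, 324 and 269.8 CPM in KO, against 132, 123 and 131 CPM in WT (1.08) and Cd3d at 800.4, 819 and 843 CPM in KO, against 478, 494 and 485 CPM in WT (0.76), both signalling chains of the receptor. Icos, a costimulator of the CD28 family, rose 2.44-fold (427 ± 28.9 CPM in KO against 175 ± 20.8 CPM in WT). Besides Tnfrsf4, Cd5, a brake on receptor signalling, fell (21.9 ± 2.02 CPM in KO against 40 ± 4.57 CPM in WT; −0.84, limma adjusted p = 0.0022). The kinases Lck (−0.10) and Zap70 (0.28) did not pass.

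Of 21 tested cytokine and chemokine genes 12 rose and 2 fell, beside 15.8% and 21.1% of all genes tested. Their median was 0.97. Spp1, osteopontin, stood at 47.2, 51.2 and 66.3 CPM in KO, against 5.84, 8.36 and 5.09 CPM in WT (log2 fold change 2.92, SE 0.23, adjusted p = 1.02e-06 by limma), and Il10, an anti-inflammatory cytokine, at 18.8, 25.9 and 29.1 CPM in KO, against 1.17, 1.11 and 0.565 CPM in WT (log2 fold change 3.71, SE 0.32, adjusted p = 1.88e-06 by limma). Every KO library was above every WT library for both. Lta, lymphotoxin α, fell to 90.6, 93.1 and 66.3 CPM in KO, against 198, 277 and 249.7 CPM in WT (−1.53, limma adjusted p = 6.91e-06), and Mif, the macrophage migration inhibitory factor, fell (−0.70). Ifng, the effector cytokine, had few reads (5.18, 4.32 and 7.58 CPM in KO, against 3.51, 1.67 and 1.13 CPM in WT; 1.15, limma adjusted p = 0.0353), and its call ended without WT replicate 2 or 3 (limma adjusted p = 0.0973 and 0.128) and without KO replicate 1 or 3 (0.0641 and 0.122). Tnf did not pass (14.9 ± 3.22 CPM in KO against 13.5 ± 2.90 CPM in WT). Of the 21 genes 3 had no WT library at 1 CPM and could pass the filter only through KO.

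Of 15 tested helper and regulatory genes 6 rose and 0 fell (1 fell without KO replicate 1), beside 15.8% and 21.1% of all genes tested. Il10 and Il13 were among the 6, and Il13 could pass the filter only through KO. Maf, a factor that drives Il10 in helper cells, stood at 378, 327 and 339 CPM in KO, against 16.9, 32.9 and 21.5 CPM in WT, 14.6-fold higher (log2 fold change 3.86, SE 0.19, adjusted p = 2.05e-08 by limma), and Rora, a factor of innate and type 17 lymphocytes, at 124, 87.6 and 107 CPM in KO, against 21, 22.3 and 27.7 CPM in WT (log2 fold change 2.11, SE 0.17, adjusted p = 9.83e-07 by limma). The groups were far apart in both. Il13, a type 2 cytokine, had 3.88, 1.85 and 2.53 CPM in KO and no read in WT. Gata3 (64.8 ± 10.1 CPM in KO against 59.1 ± 5.4 CPM in WT) and Foxp3 (3.24, 3.08 and 0 CPM in KO, against 1.17, 0 and 4.52 CPM in WT) did not pass.

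Of 32 tested genes of homing and adhesion 15 rose and 1, Ccr7, fell (16 rose without KO replicate 2, and 2 fell without WT replicate 3 or KO replicate 3). Of the 32 genes 3 could pass the filter only through KO. Itgb3, an integrin β chain, rose 5.4-fold (99.4 ± 4.87 CPM in KO against 18.4 ± 4.82 CPM in WT; log2 fold change 2.40, SE 0.19, adjusted p = 9.10e-07 by limma), and Cd44, the hyaluronan receptor of activated T cells, rose 2.05-fold. Of 44 tested genes of cytokine receptors and their signalling 19 rose and 3 fell (22 rose without KO replicate 2). For both lists the shares over all genes tested were 15.8% higher and 21.1% lower. Il12rb2, the inducible IL-12 receptor chain, stood at 80.2, 60.4 and 89.7 CPM in KO, against 27.5, 23.4 and 28.3 CPM in WT (log2 fold change 1.49, SE 0.17, adjusted p = 2.28e-05 by limma), Jak1 rose to 898, 1101 and 895 CPM in KO, against 554, 589 and 551 CPM in WT, and Ifngr1 rose by 0.86 on the log2 scale. Ifngr2, the other chain of the interferon γ receptor, fell to 1.94, 1.85 and 0 CPM in KO, against 8.76, 4.46 and 6.22 CPM in WT. The number that fell was 1 without WT replicate 1 or KO replicate 3 and with median-of-ratios scaling, DESeq2 or edgeR.

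Of 12 tested NK receptor and adaptor genes 7 rose and 1, Klrk1, fell, beside 15.8% and 21.1% of all genes tested. Klra5, 1 of the 7, could pass the filter only through KO. Fcer1g, the signalling chain of Fc and NK receptors, stood at 30.4, 15.4 and 18.3 CPM in KO, against 1.17, 0.557 and 0.565 CPM in WT (log2 fold change 3.63, SE 0.35, adjusted p = 5.41e-06 by limma). Klrb1c, the gene of NK1.1, stood at 15.5, 14.2 and 10.1 CPM in KO, against 1.17, 1.11 and 0 CPM in WT (log2 fold change 3.08, SE 0.39, adjusted p = 5.20e-05 by limma), and Klra5, a receptor of the Ly49 family of near copies, had 8.41, 4.32 and 5.05 CPM in KO and no read in WT. Of 4 tested markers of NK and innate-like T cells 1, Klrb1c, rose. Of the other markers, Ncr1 and Klra8 had no read, and Eomes, Mr1 and Cd1d1 did not pass.

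Genes of migration and shape stood high in KO. Of 30 tested S100, annexin, galectin and cytoskeleton genes 17 rose and 6 fell (19 and 7 without KO replicate 2), beside 15.8% and 21.1% of all genes tested. S100a6, a calcium-binding protein of effector and memory cells, stood at 5150.1, 4539.9 and 5067 CPM in KO, against 1102, 1047 and 1072 CPM in WT (log2 fold change 2.19, SE 0.08, adjusted p = 1.35e-09 by limma), S100a4 at 2113, 1729.7 and 2439.8 CPM in KO, against 456, 489 and 489.9 CPM in WT (2.11), and Lgals3, galectin-3, at 1246, 1040.3 and 1388 CPM in KO, against 348, 337 and 337 CPM in WT (1.83). All 3 genes had every KO library more than 2-fold above WT. The tubulin gene Tuba1b fell to 1035, 956 and 1027 CPM in KO, against 2920.2, 2795 and 2875 CPM in WT (log2 fold change −1.51, SE 0.08, adjusted p = 2.67e-08 by limma), and Lmnb1, a lamin of dividing cells, fell by 1.42.

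All 8 Gimap genes, GTPases of lymphocyte survival that lie side by side on chromosome 6 (48647234 to 48770851, GRCm38), rose, by 0.47 to 1.5 on the log2 scale. Gimap3 stood at 199.9, 202 and 190.2 CPM in KO, against 73.6, 71.3 and 63.3 CPM in WT (log2 fold change 1.5, SE 0.11, adjusted p = 5.09e-07 by limma) and Gimap6 at 165, 187 and 169 CPM in KO, against 67.8, 65.8 and 65.0 CPM in WT (1.38). Of 28 tested immediate early and feedback genes 13 rose and 3 fell, beside 15.8% and 21.1% of all genes tested, and 1 fell with DESeq2. Nr4a1, 1 of the 3 falls, could pass the filter only through WT. Btg1, an antiproliferative gene that marks quiescent T cells, stood at 1200.3, 1186 and 1196 CPM in KO, against 124, 142 and 124 CPM in WT, 9.20-fold higher (log2 fold change 3.20, SE 0.09, adjusted p = 6.09e-11 by limma), and was nearly equal in the 3 KO libraries. Dusp6, a phosphatase of ERK (164 ± 6.60 CPM in KO against 45.1 ± 2.19 CPM in WT), Nfkbia, the inhibitor of NF-κB (1.19), and Ier5 (1.40) rose too. Myc, a transcription factor of cell growth, stood at 24.6, 38.2 and 28.4 CPM in KO, against 49.1, 50.7 and 43.5 CPM in WT (−0.65, limma adjusted p = 0.0126), a call that ended without WT replicate 1 or 2 (limma adjusted p = 0.0524 and 0.0577) or KO replicate 1 (0.0502) and with DESeq2 (0.102).

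Of 41 tested targets of p53 and genes of apoptosis 26 rose and 3 fell (25 and 3 without KO replicate 2), beside 15.8% and 21.1% of all genes tested. Their median was 0.90, and 1 of the 41 could pass the filter only through KO. Bcl2l11, the gene of BIM, which starts mitochondrial death, stood at 438, 392 and 394 CPM in KO, against 93.5, 90.9 and 84.8 CPM in WT (log2 fold change 2.17, SE 0.10, adjusted p = 1.09e-08 by limma). Mdm2, the ligase of p53 and its target, stood at 186, 216 and 204 CPM in KO, against 49.1, 56.9 and 63.8 CPM in WT (log2 fold change 1.82, SE 0.13, adjusted p = 2.93e-07 by limma), and Ccng1 and Trp53inp1, both p53 targets, rose 2.96-fold and 4.32-fold. The groups did not overlap in these 4 genes. The falls were Trp53 itself (45.9, 45.6 and 37.3 CPM in KO, against 66.6, 56.9 and 68.9 CPM in WT; −0.57, limma adjusted p = 0.00893), the BH3 gene Bid (−1.18) and the survival gene Bcl2 (795 ± 51.4 CPM in KO against 935 ± 19.7 CPM in WT; −0.24, limma adjusted p = 0.0373). The Trp53 call ended without WT replicate 3 (limma adjusted p = 0.0513) and with DESeq2 (0.0915), and 1 gene fell without WT replicate 3.

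Genes of other cell lineages were mostly silent. Of 60 developmental regulators and inhibitors commonly under Polycomb control, 32 had no read in the 6 libraries and 10 passed the filter, of which 7 rose and 1 fell (6 and 0 without KO replicate 2). Members at 0 in WT could pass only through KO, as 2 of the 10 did, so this count supports nothing by itself. Beside Cdkn2a and Cdkn2b, Msc, a basic helix-loop-helix factor, stood at 30.4, 21 and 35.4 CPM in KO, against 3.51, 2.79 and 3.39 CPM in WT (log2 fold change 2.80, SE 0.28, adjusted p = 6.72e-06 by limma), and Onecut2, a factor of liver and neurons, at 15.5, 14.2 and 10.1 CPM in KO, against 0.584, 0 and 0 CPM in WT, with 1 read in WT. Hox, Gata, Nkx and Neurog genes of the list were among those with no read. The fall was Prdm16, whose call ended without WT replicate 2 or 3 and without KO replicate 1 or 2 (limma adjusted p of 0.0646, 0.0635, 0.0538 and 0.0524).

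Of 11 class II presentation genes 6 rose and 0 fell (1 fell without WT replicate 3), beside 15.8% and 21.1% of all genes tested. A total of 2 of the 11 could pass the filter only through KO. H2-Aa, a class II α chain, stood at 57.6, 46.9 and 45.5 CPM in KO, against 0.584, 0 and 0 CPM in WT (ratio 263, 95% counting interval 46.8 to 10440.1, 1 read in WT). Cd74, the invariant chain, stood at 53.7, 72.8 and 39.2 CPM in KO, against 0, 0 and 0.565 CPM in WT (ratio 292, 95% counting interval 52.0 to 11581, 1 read in WT), and H2-Eb1, a class II β chain, at 30.4, 26.5 and 22.7 CPM in KO, against 0, 0 and 1.13 CPM in WT. Ciita, the master activator of class II genes, stood at 11.6, 3.70 and 5.69 CPM in KO, against 1.17, 0.557 and 0 CPM in WT (log2 fold change 2.29, SE 0.46, adjusted p = 0.00178 by limma). H2-Ab1 was present in both groups (105 ± 22.3 CPM in KO against 61.8 ± 2.39 CPM in WT; 0.74). Of the markers of B, myeloid and dendritic cells most had no read, while some myeloid and dendritic ones rose. Of 11 B cell markers 6 had no read, Ms4a1 and Pax5 among them, and the list's sum was 3.24 to 8.84 CPM in KO and 2.83 to 8.36 CPM in WT. Of 23 myeloid and dendritic markers 14 had no read, Lyz2, Spi1, Flt3 and Clec9a among them. Their sum was 21.6 to 37.5 CPM in KO and 8.18 to 11.9 CPM in WT, and 4 were tested, 2 of which could pass the filter only through KO, Itgam being 1 of them. Of the 4, 2 rose, Itgam, an integrin chain also known from activated CD8 T cells (9.06, 6.17 and 5.69 CPM in KO, against 0.584, 0 and 0.565 CPM in WT), and Cd68, a lysosomal membrane protein (11.6, 8.02 and 17.1 CPM in KO, against 2.92, 4.46 and 3.96 CPM in WT). Itgax, a dendritic marker, did not pass (log2 fold change 1.19, limma adjusted p = 0.0511). It passed with median-of-ratios scaling (limma adjusted p = 0.0455), where 3 of the 4 rose. The part of cells with these markers in the class II result was not tested.

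Of the other marker lists, 1 of 4 erythroid and platelet genes rose (Hba-a1, 5.18, 11.7 and 4.42 CPM in KO, against 2.34, 2.23 and 2.26 CPM in WT) and 1 of 2 stromal genes (Epcam, 3.24, 6.17 and 4.42 CPM in KO, against 0.584, 1.11 and 2.83 CPM in WT). Neither call held without KO replicate 2 or without WT replicate 1 or 2, nor did that of Hba-a1 without WT replicate 3 or that of Epcam without KO replicate 3. The erythroid sum was 19.4 to 39.8 CPM in KO and 11.9 to 21.6 CPM in WT, and the stromal sum was 37.0 to 57.6 CPM in KO and 31.0 to 44.6 CPM in WT. Of 6 CD4 T cell markers 1, Icos, rose and 2 fell, Cd5 and Cd40lg, of which Cd40lg did not pass without any 1 of the 6 libraries (limma adjusted p of 0.0614 to 0.146). A single marker of this list could pass the filter only through WT. Of 9 CD8 T cell markers 5 rose and 0 fell, or 3 without the trend in the spread, while 6 rose and 1 fell without KO replicate 2.

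Of 50 tested interferon-stimulated genes 20 rose and 6 fell (21 and 7 without KO replicate 2, 30 and 5 with median-of-ratios scaling). Over all genes tested 15.8% rose and 21.1% fell (18.9% and 16.7% with median-of-ratios scaling). Of the 50 genes 1 could pass the filter only through KO. The antiviral membrane protein gene Ifitm1 stood at 2542, 2616 and 2687 CPM in KO, against 685, 774 and 690.4 CPM in WT (log2 fold change 1.87, SE 0.08, adjusted p = 8.29e-09 by limma). Mx1, a GTPase against RNA viruses, stood at 53.1, 43.2 and 43.0 CPM in KO, against 4.09, 3.90 and 7.35 CPM in WT (log2 fold change 2.99, SE 0.26, adjusted p = 1.84e-06 by limma), and Ifit3 at 21.4, 19.1 and 12.6 CPM in KO, against 2.34, 1.67 and 2.26 CPM in WT (2.57). The falls included Iigp1, an interferon γ-induced GTPase (70.3 ± 19.5 CPM in KO against 167 ± 27.8 CPM in WT; −1.26), and Psmb9, a subunit of the immunoproteasome (293 ± 64.7 CPM in KO against 515 ± 13.6 CPM in WT; −0.84). The number that fell was 3 without the trend in the spread.

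The KO minus WT difference at day 5 was then set against that at day 3, whose means come from other libraries, with the interaction of genotype and day in all 12. Of 11417 genes tested, 458 (4.01%) had a more positive and 1010 (8.85%) a more negative difference at day 5. With median-of-ratios scaling the counts were 617 and 742, and without KO replicate 2 they were 540 and 1223. Of the 1010 genes 643 were lower in KO at day 5 and not called at day 3, and of the 458 genes 267 were higher at day 5 and not called at day 3. At day 3 itself 2100 genes differed (18.4%), 1275 higher (11.2%) and 825 lower (7.23%) in KO. The day 3 calls came from a fit to all 12 libraries, so the day 5 libraries entered their spread. With all 12 libraries in the fit 4503 genes were called at day 5, where the 6 day 5 libraries alone gave 4027. Counts of calls at the 2 days are thus not made alike.

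Of the division genes, 52 of 65 S phase and 65 of 70 mitosis genes had a negative interaction and 0 a positive one. Over all genes tested 8.85% had a negative and 4.01% a positive interaction. At day 3, 21 of the S phase and 11 of the mitosis genes were lower in KO and 0 higher. Mki67 held 930.3, 913 and 846 CPM in KO day 3 libraries, against 771, 804 and 811 CPM in WT day 3 libraries, and at day 5 383, 439 and 425 CPM in KO, against 1022, 909 and 959 CPM in WT. The difference of the differences was −1.38 ± 0.10 SE, limma adjusted p = 2.36e-08. Top2a (−1.15) and the tubulin genes Tuba1b (−1.25) and Tuba4a (−1.21) had negative interactions too. Unlike Mki67 (0.17 on the log2 scale at day 3), these genes already stood lower in KO at day 3 (−0.33, −0.26 and −0.16). A negative interaction was also called in 23 of 33 cholesterol and fatty acid genes, with 0 positive.

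Cdkn2a also had a negative interaction (−3.54 ± 0.31 SE, limma adjusted p = 1.65e-07), but stood higher in KO at both days, with 517, 469 and 567 CPM in KO and 2.96, 6.65 and 1.70 CPM in WT at day 3. Its WT level was higher at day 5 than at day 3. The same holds for Ifitm1 (909.9, 859 and 1091 CPM in KO and 42.6, 49.9 and 34.0 CPM in WT at day 3; interaction −2.61), Ifitm2 (−1.96) and Ifitm3 (−1.62), whose KO minus WT differences were 4.48, 2.76 and 2.97 at day 3 and 1.87, 0.80 and 1.35 at day 5.

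Among positive interactions Btg1 had the smallest adjusted p, with 187, 169 and 242 CPM in KO and 126, 122 and 117 CPM in WT at day 3, beside its rise at day 5 (2.51 ± 0.15 SE, limma adjusted p = 4.09e-10). Serpine2 (2.58) and Vsir (1.42) were higher in KO at both days and more so at day 5. Npc2, Gimap3, Shisa5 and Fxyd5 had day 3 differences between −0.08 and 0.11 on the log2 scale and rose at day 5. Ifi27l2a, an interferon-induced gene, went in opposite directions, with 36.7 ± 6.17 CPM in KO and 126 ± 3.10 CPM in WT at day 3 and 166 ± 40.7 CPM in KO and 111 ± 14.7 CPM in WT at day 5 (2.31 ± 0.21 SE, limma adjusted p = 2.23e-07). Its day 5 rise did not pass without WT replicate 2 or 3 (limma adjusted p = 0.0769 and 0.0591). Of lists, 36 of 80 ribosomal protein genes, 11 of 41 p53 and apoptosis genes, 11 of 26 receptor complex and costimulatory genes and 6 of 8 Gimap genes had a positive interaction and none a negative one. The shares over all genes tested were 4.01% positive and 8.85% negative.

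**Figure D5:**
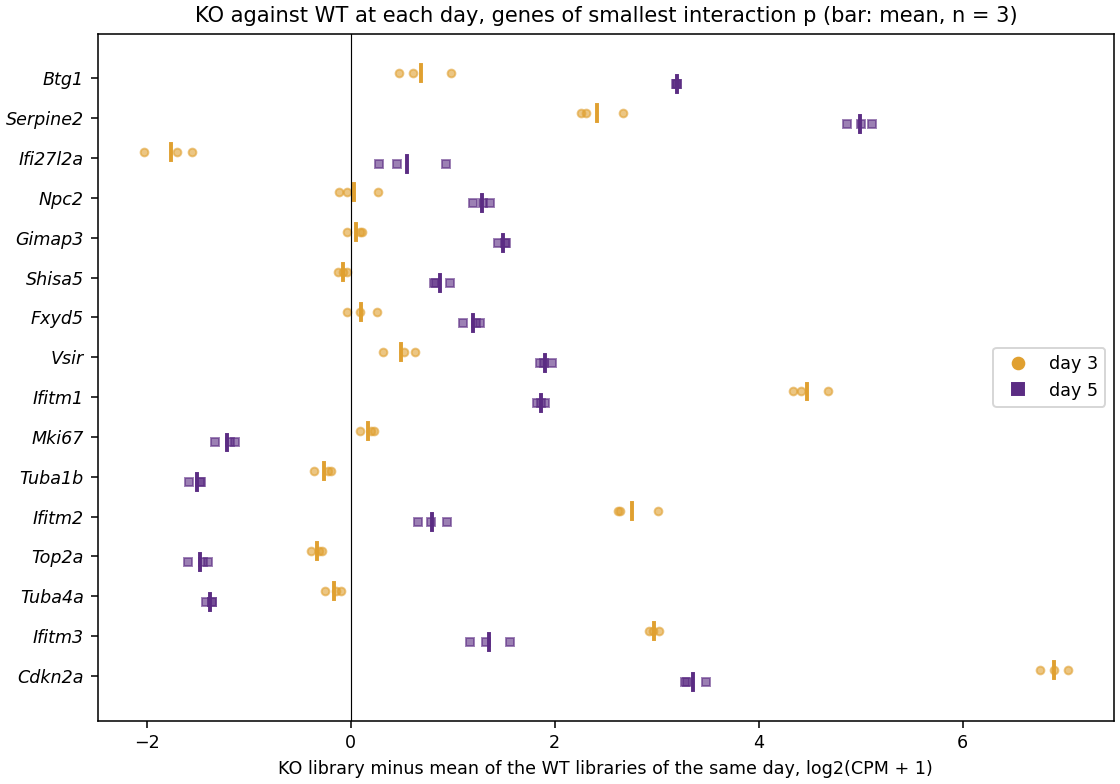
For the 16 genes with the smallest interaction p, points give each KO library minus the mean of the WT libraries of the same day (log2(CPM + 1)), circles for day 3 and squares for day 5, with bars at the means of 3 libraries. Mki67 averages 0.17 at day 3, and Top2a, Tuba1b and Tuba4a average −0.33, −0.26 and −0.16. At day 5 these genes lie between −1.51 and −1.21 on average, while Btg1 lies at 0.69 at day 3 and 3.20 at day 5.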

How the data were processed

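Gene expression was measured by QuantSeq 3′ sequencing of total RNA (500 ng), per the labels. The authors deposited a table per library labelled TPM, but its values have the same step for every gene and sum to 1000000, so they are CPM of whole reads (100% of values within 0.001 of a whole read) with no scaling by length. Builds GRCm39 and mm10 appear, with no role, per the submitters' processing notes. The sources used here name no aligner or counter.

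The main test was limma (3.58.1, R 4.3.3) on log2(CPM + 1) with a trend of the spread on expression, two-sided, with Benjamini-Hochberg adjustment over 10903 genes (threshold 0.05). A fold change on that scale understates the change of low genes. Means are ± SD with n = 3, ratios with 3 or fewer reads in a group have exact 95% counting intervals, and floors are 3 reads over the group, covering counting error only. The interaction and the day 3 calls used a fit to 12 libraries. Reads were recovered as whole numbers and tested with edgeR (4.0.16), which called 3924 genes, and DESeq2 (1.42.0), which called 2842. On simulated day 5 counts limma recovered 85% of 2-fold and 100% of 4-fold changes, with 8 false calls. The simulation gave all genes the same dispersion and changed few genes, all of at least 5 CPM, equally up and down. No simulated library stood apart, so these rates need not hold for the real libraries.

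Gene members and lists were chosen with earlier results of these data known. Named genes are Ezh2, the 15 largest rises and falls, 4 genes of smallest adjusted p per list with up to 2 against its direction, 8 interaction genes per direction and 15 defining genes. Some genes that this rule names are not reported here. Any other gene named or plotted was chosen after its values were seen. Same-numbered libraries were not paired by the labels. Coordinates are from GENCODE M21 (GRCm38) and 10890 tested genes matched. Genes not tested (14752) stayed below the filter.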

Additional observations from a re-analysis of the deposited data

Results flagged for a closer look

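The genotype difference changed with the day in 458 genes with a more positive and 1010 genes with a more negative KO minus WT difference at day 5 than at day 3, by the limma test of the interaction in 12 libraries. The 16 genes of smallest adjusted p were picked out by that test, and the values below are differences of log2 fold changes, day 5 minus day 3. The more positive ones were Serpine2 (2.58), Btg1 (2.51), Ifi27l2a (2.31), Gimap3 (1.44), Vsir (1.42), Npc2 (1.26), Fxyd5 (1.09) and Shisa5 (0.96). The more negative ones were Cdkn2a (−3.54), Ifitm1 (−2.61), Ifitm2 (−1.96), Ifitm3 (−1.62), Mki67 (−1.38), Tuba1b (−1.25), Tuba4a (−1.21) and Top2a (−1.15). Of these 16, Ifi27l2a alone was called in opposite directions on the days.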

How the results depend on the processing

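Of 189 named genes tested at day 5, 172 were called. Over the 20 alternatives 166 kept their side of the threshold wherever they were tested, and 159 also their direction. The stricter filter of 5 CPM left some low genes untested, and these count as kept there. With a pseudocount of 5, 500 genes were at least 2-fold higher and 399 at least 2-fold lower, since the larger constant shrinks fold changes. DESeq2 on recovered reads called 1297 genes lower and 456 at least 2-fold lower, and the cause was not tested. Without the trend in the spread, Ezh2 kept its log2 fold change of −0.70 and did not pass (adjusted p = 0.0734), and 282 positive and 602 negative interactions were called. Leaving out a library gave 1337 to 1770 genes higher, 1663 to 2403 lower, 782 to 855 at least 2-fold higher, 641 to 784 at least 2-fold lower, an Ezh2 log2 fold change of −0.97 to −0.55, and 346 to 540 positive and 762 to 1223 negative interactions. Correlations of deviations were 0.0057, 0.044 and 0.014 for same-numbered KO and WT libraries and −0.045 to 0.030 for the other pairs. Counting noise is part of every deviation, so these values cannot tell whether same-numbered libraries share an origin. With the replicate block, 1669 genes were higher and 2244 lower, and 459 and 1014 interactions were called. None of the 172 called genes changed sign under any of the 20 alternatives that tested it, while 8 genes that did not pass did. Leaving out a library gave log2 fold changes of −0.42 to 0.099 for Cd79b, −0.021 to 0.28 for Tnf, −0.15 to 0.22 for Cd1d1, −0.30 to 0.87 for Hbb-bt, −0.11 to 0.55 for Mr1, −0.028 to 0.35 for Pecam1 and −0.0071 to 0.45 for Zbtb7b. Quantile normalization gave −0.059 for Cd1d1, and Cd79b had 0.022 with library weights, 0.013 with DESeq2 and 0.012 with edgeR. Hbb-bs had 0.33 with DESeq2 and with edgeR. With median-of-ratios scaling 53% of day 5 calls were higher, beside 42.8% with CPM. With between 1545391 and 1794137 reads a library, genes near 1 CPM rest on a few reads.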

Other observations

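Of 8 tested S100a genes on chromosome 3 (90511034 to 93564643, GRCm38) 7 rose and 0 fell, and Ifitm1, Ifitm2 and Ifitm3, side by side on chromosome 7 (140954837 to 141010770), all rose. Il5, a type 2 cytokine below the filter, had 7 reads in KO and 0 in WT.

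The genes that set KO replicate 2 apart include Txnip, a brake on glucose uptake, at 640.0, 199 and 625 CPM in KO and 131, 168 and 159 CPM in WT, and Socs3, a feedback inhibitor of cytokine signalling, at 73.8, 24.0 and 88.4 CPM in KO and 15.2, 19.5 and 22.0 CPM in WT. Rpl10, a ribosomal protein gene with near-identical copies, held 168, 14.8 and 92.9 CPM in KO and 183, 169 and 79.1 CPM in WT. These 3 genes were chosen after their values were seen.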
